A study of Mus with 9 samples.

Results

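The voltage-gated sodium and calcium channel genes of the mouse hippocampus were taken by their symbols, as every probe set whose symbol names a sodium channel alpha or beta subunit (Scn followed by a number and a or b) or a calcium channel alpha, beta or gamma subunit (Cacna, Cacnb or Cacng). A probe set is the group of array probes summarized for a gene. The pattern found 40 of 22206 probe sets, for 39 genes, and Scn4a alone had more than 1 probe set. Of these genes, 19 encode pore-forming subunits (9 sodium and 10 calcium) and 20 encode auxiliary subunits (4 sodium and 16 calcium). Scn2a is listed under the older symbol Scn2a1, which the pattern does not take, so it was kept out of the counts and its values are given separately.

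Hippocampal RNA was hybridized to 9 Clariom S Mouse arrays, 3 for each of 3 groups of male mice, described as 16 weeks old. The methods give this age for the mice taken into the study, and the hippocampi were collected after the dosing and testing described below. SAMR1, the senescence-resistant strain, and SAMP8, the senescence-prone strain with early memory decline, received vehicle (saline in the sample records, water in the methods). The TG-treated SAMP8 group received trigonelline, a plant alkaloid, orally at 5 mg/kg over 30 days, and dosing went on during 8 days of water maze testing. The 3 arrays of a group came from hippocampi picked at random among its mice. SAMR1 and SAMP8 are separate inbred lines, so a difference between them covers every locus at which the lines differ. The deposited signals are the authors' group averages (log2), with no value per array, so no spread between mice and no test across arrays could be computed. The authors' own p-values came with these averages and were not used. Each difference below is a description of the averages. The average of SAMP8 enters both the SAMP8 vs SAMR1 and the TG-treated SAMP8 vs SAMP8 comparison, so a high or low SAMP8 value shifts both in opposite directions. In whole tissue, fewer cells of a type and less RNA per cell cannot be told apart. Levels of different probe sets are not compared, because probes differ in brightness.

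Voltage-gated sodium channels open on depolarization and carry the upstroke of the action potential, and voltage-gated calcium channels turn depolarization into calcium entry that drives transmitter release, dendritic signalling and gene expression. In both families a large alpha subunit forms the pore and senses voltage, while smaller subunits adjust gating, trafficking and placement at the membrane. In hippocampal neurons Scn1a, Scn2a and Scn8a are the main sodium pores of the mature cells, Scn3a is best known from development, and the calcium pores divide into the L type (Cacna1c, Cacna1d), the presynaptic P/Q and N types (Cacna1a, Cacna1b), the R type (Cacna1e) and the low-voltage T type (Cacna1g, Cacna1h, Cacna1i).

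The differences were small and went both ways. A member was counted as higher or lower when its group averages differed by more than 1.5-fold, which is 0.58 on the log2 scale. In SAMP8 vs SAMR1, 5 of 40 probe sets passed this limit (12.5%), beside 11.1% of all probe sets. Of these, Cacna1g, Cacnb4, Cacng3 and Cacng5 were higher in SAMP8, as were 5.00% of all probe sets by this limit, and Cacng1 was lower, as were 6.08% of all. In TG-treated SAMP8 vs SAMP8 the count was 4 (10%), beside 8.21% of all. Of these, Cacna1a, Scn3b and Cacng5 were lower with TG, as were 3.74% of all, and 1 was higher, as were 4.48% of all. Here and below, a difference with TG is that of TG-treated SAMP8 minus SAMP8. Between TG-treated SAMP8 and SAMR1 it was 5 (12.5%), beside 10.5% of all. Of these, 3 were higher in the TG-treated group, Cacna1g and Cacna2d4 among them, as were 5.62% of all, and Cacna1d and Cacng1 were lower, as were 4.83% of all. The shares of the members thus lay near those of all probe sets in each of the 3 comparisons. No member differed by more than 2-fold in any of them, and 30 of the 40 probe sets stayed within 1.5-fold in every comparison.

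**Figure D1:**
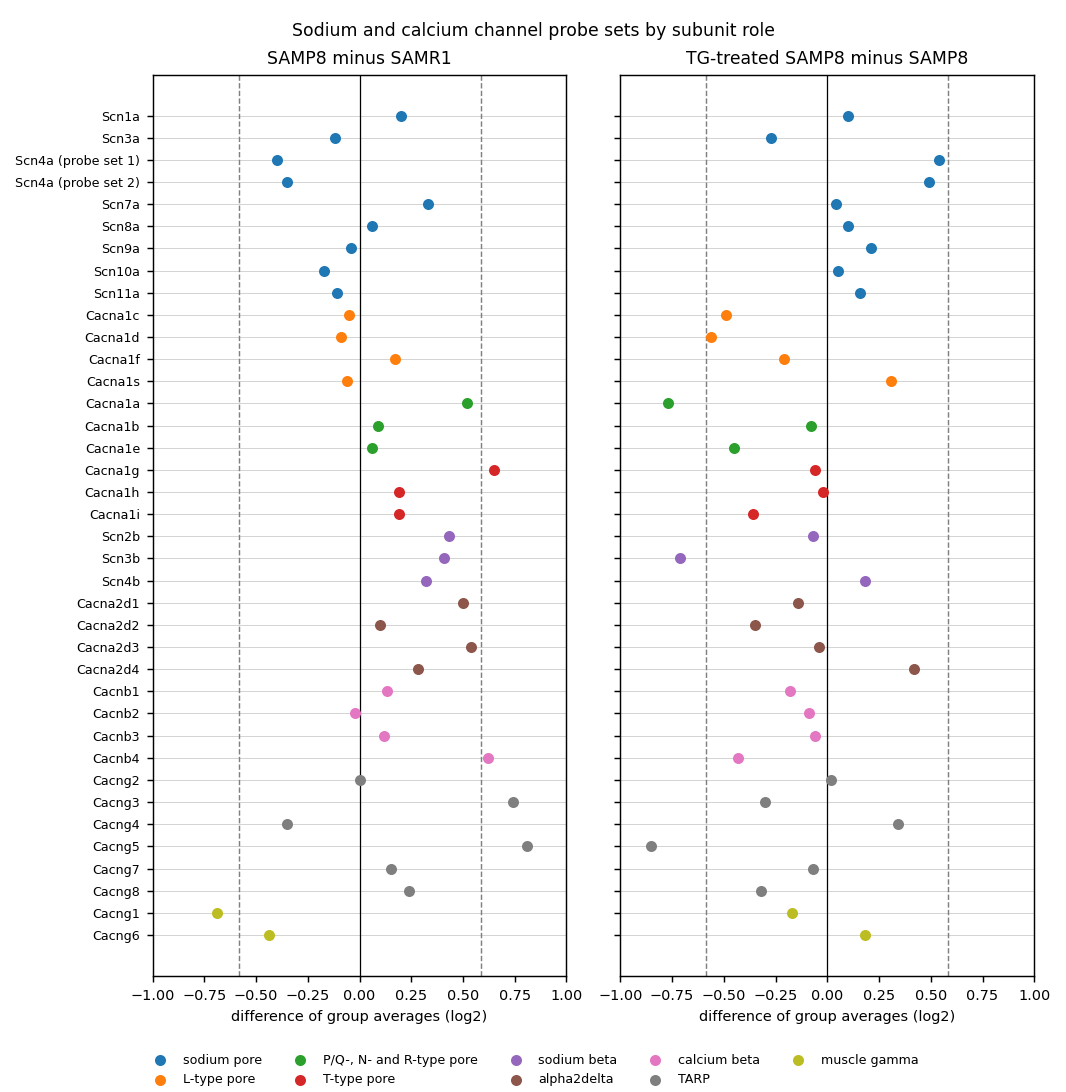
Each point is the difference of the authors' group averages (x axis, log2) for 1 of 38 probe sets (y axis), coloured by subunit role, for SAMP8 minus SAMR1 on the left and TG-treated SAMP8 minus SAMP8 on the right. Dashed lines mark 1.5-fold. Most points lie between them, and 5 on the left and 3 on the right lie outside.

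Among the sodium channel pores, no probe set passed 1.5-fold in any comparison. Scn1a, the main sodium pore of fast-spiking inhibitory neurons, averaged 10.61 in SAMR1, 10.81 in SAMP8 and 10.91 with TG. Scn8a, concentrated at the axon initial segment and nodes, averaged 11.12 in SAMR1, 11.18 in SAMP8 and 11.28 with TG. Scn3a, at 10.39, 10.27 and 10.00, went the other way and was lowest with TG. For these 3 genes the widest gap was that of Scn3a between the TG-treated group and SAMR1, -0.39 on the log2 scale. Scn2a, under the symbol Scn2a1, stood at 12.80 in SAMR1, 12.92 in SAMP8 and 12.58 with TG, a difference with TG of -0.34.

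The other sodium pores are known mainly from tissues outside the brain or from glia and peripheral neurons. Scn4a, the pore of skeletal muscle, was measured by both of its probe sets with the same order of groups. The brighter of them gave 6.37 in SAMR1, 5.97 in SAMP8 and 6.51 with TG, and the dimmer 5.31, 4.96 and 5.45. Their differences with TG, 0.54 and 0.49, were the highest of all pore-forming members. Scn7a, a sodium-sensing channel of glia and other non-neuronal cells, stood at 5.68 in SAMR1, 6.01 in SAMP8 and 6.05 with TG. Scn10a and Scn11a, of peripheral sensory neurons, were among the dimmest 25% of all probe sets, and so were Cacna1f, of the retina, and Cacng1, of skeletal muscle. Over the 10 sodium pore probe sets, 8 were higher and 2, among them Scn3a, lower in TG-treated SAMP8 than in SAMP8, where 50.0% of all probe sets were higher, and the median difference was 0.10. In SAMP8 vs SAMR1, 7 were lower and 3 higher, with a median of -0.115, and 49.0% of all probe sets were lower.

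The calcium pores were mostly lower with TG. Of 10 genes, 9 were lower in TG-treated SAMP8 than in SAMP8 (48.3% of all probe sets were lower) and only the muscle pore Cacna1s was higher, at 4.43 in SAMP8 and 4.74 with TG. The median difference of the 10 was -0.29 in this comparison and 0.13 in SAMP8 vs SAMR1. The single calcium pore past 1.5-fold with TG was Cacna1a, the P/Q-type pore that triggers release at most fast synapses. It stood at 12.46 in SAMR1, 12.98 in SAMP8 and 12.21 with TG. That is 1.71-fold lower with TG than in SAMP8, at percentile 1.3 of all probe sets, and 1.19-fold lower than in SAMR1.

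The neuronal L-type pores Cacna1d and Cacna1c had strain differences of -0.09 and -0.05, and both were lower with TG. Cacna1d stood at 8.41 in SAMR1, 8.32 in SAMP8 and 7.76 with TG. Its difference of -0.56 with TG fell just short of the limit, and against SAMR1 it was -0.65, or 1.57-fold lower. Cacna1c, the main L-type channel of the brain, stood at 12.46 in SAMR1, 12.41 in SAMP8 and 11.92 with TG. Its TG-treated average was thus below both vehicle groups. The R-type pore Cacna1e was also lowest with TG, at 13.73 in SAMR1, 13.79 in SAMP8 and 13.34 with TG. The N-type pore Cacna1b had no difference beyond 0.09 in either direction, with 13.67 in SAMR1, 13.76 in SAMP8 and 13.68 with TG.

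Among the T-type pores, which open near rest and support burst firing, Cacna1g differed between the strains. It stood at 7.65 in SAMR1, 8.30 in SAMP8 and 8.24 with TG, so that both SAMP8 groups lay above SAMR1. The strain difference was 0.65 (1.57-fold), and that of the TG-treated group against SAMR1 was 0.59, which is within 0.01, the rounding of the deposited averages, of the limit. Cacna1h had 10.14, 10.33 and 10.31, and Cacna1i 6.17, 6.36 and 6.00. Cacna1g is known for high expression in the thalamus, and the thalamic markers Tcf7l2 and Slc17a6 were likewise above SAMR1 in both SAMP8 groups. Tcf7l2 stood at 7.72, 8.48 and 8.44, and Slc17a6 at 7.48, 8.14 and 8.21. Of the other thalamic markers, Prkcd (10.85, 11.03 and 9.53) and Calb2 (10.16, 9.97 and 9.66) were lowest with TG. Lef1, at 4.29, 4.64 and 4.74, and every probe set of Rora, which has several, were lowest in SAMR1. Over the 8 probe sets of the 6 thalamic markers, 7 were higher in SAMP8 than in SAMR1 and 6 were higher in the TG-treated group than in SAMR1, the mean level was 8.01 in SAMR1, 8.41 in SAMP8 and 8.19 with TG, and none was among the dimmest 25%. Their part in the Cacna1g difference was not tested.

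The sodium channel beta subunits, adhesion-like proteins that tune gating and surface density, included Scn3b, which was past 1.5-fold with TG. It stood at 14.86 in SAMR1, 15.27 in SAMP8 and 14.56 with TG, which is 1.64-fold lower with TG than in SAMP8. Scn2b and Scn4b, whose proteins bind the alpha subunit through a disulfide bond, were higher in SAMP8 than in SAMR1 by 0.43 and 0.32, and with TG their differences were -0.07 and 0.18. Scn4b is best known from the striatum and from fast-spiking neurons. The 6 striatal markers had mean levels of 5.58 in SAMR1, 5.67 in SAMP8 and 5.36 with TG, 5 of them were lower with TG, and Drd2 was among the dimmest 25%. Their part in the Scn4b values was not tested.

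**Figure D2:**
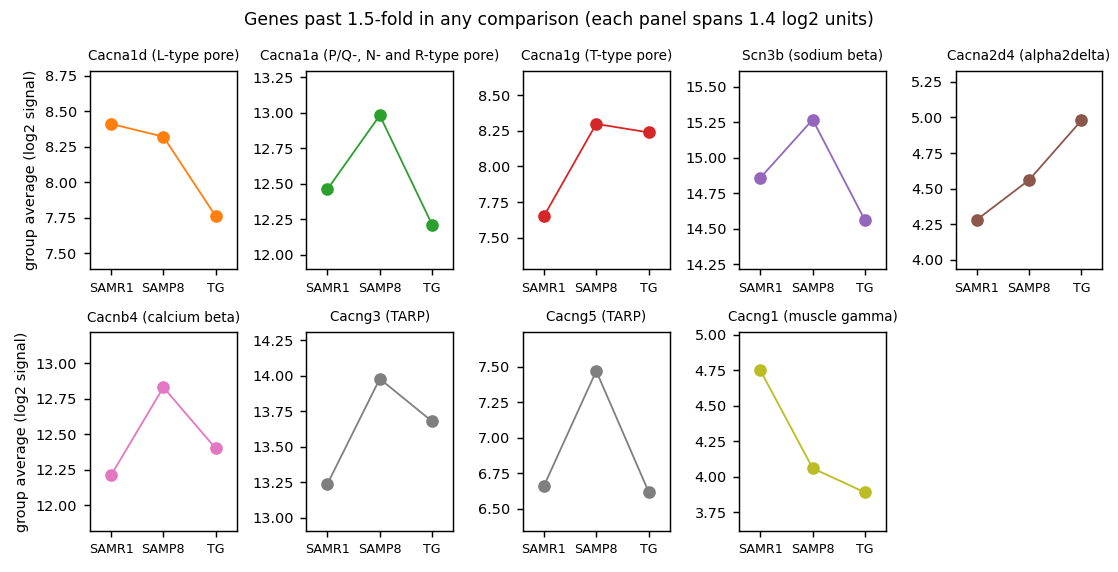
Group averages (y axis, log2 signal) in SAMR1, SAMP8 and TG-treated SAMP8 (x axis) for 9 genes past 1.5-fold in any comparison, 1 panel each, with no error bars because no values per array were used. Cacna1a, Cacna1g, Scn3b, Cacnb4, Cacng3 and Cacng5 stand highest in SAMP8, Cacna2d4 highest with TG, and Cacna1d and Cacng1 lowest with TG.

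The alpha2delta subunits carry calcium channels to the membrane and presynaptic terminal. All 4 were higher in SAMP8 than in SAMR1 (49.5% of all probe sets were higher), with a median difference of 0.39 and none past 1.5-fold. Cacna2d1 and Cacna2d3 are bright and span over 200 kb, and 66.9% of probe sets in the brightest 25% of signal (median 0.12) and 62.5% of those over 200 kb (median 0.09) were higher in SAMP8. Cacna2d3 had the largest of these, with 12.23 in SAMR1, 12.77 in SAMP8 and 12.73 with TG, and Cacna2d1 followed with 10.52, 11.02 and 10.88. For both, the TG-treated average stayed nearer to SAMP8 than to SAMR1. Cacna2d4, known from the retina and dim here, stood at 4.28 in SAMR1, 4.56 in SAMP8 and 4.98 with TG, and passed the limit only between TG-treated SAMP8 and SAMR1 (1.62-fold). Cacna2d2 differed by 0.10 between the strains and by -0.35 with TG.

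The cytoplasmic calcium channel beta subunits bind the alpha subunit and keep it from degradation. All 4 were lower in TG-treated SAMP8 than in SAMP8, with differences from -0.06 (Cacnb3) to -0.43 (Cacnb4). All 4 lie in the brightest 25% of signal, where 57.9% of probe sets were lower with TG, beside 48.3% of all. Cacnb4, the gene mutated in the lethargic mouse, stood at 12.21 in SAMR1, 12.83 in SAMP8 and 12.40 with TG. It was the only beta subunit past 1.5-fold, in SAMP8 vs SAMR1 (1.54-fold). Among Cacnb1, Cacnb2 and Cacnb3 the widest difference was -0.18, that of Cacnb1 with TG.

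Most Cacng genes encode TARPs, which bind AMPA-type glutamate receptors and set their surface number and gating, and only Cacng1 and Cacng6 belong to muscle-type calcium channels. Cacng5 showed the widest differences of all members in both comparisons that involve SAMP8. It stood at 6.66 in SAMR1, 7.47 in SAMP8 and 6.62 with TG, which is 1.75-fold higher in SAMP8 than in SAMR1 and 1.80-fold lower with TG. The TG-treated average minus that of SAMR1 was -0.04, and the high SAMP8 average enters both differences. Cacng3, a TARP of forebrain excitatory neurons, stood at 13.24 in SAMR1, 13.98 in SAMP8 and 13.68 with TG, a strain difference of 0.74. Cacng2, the stargazin gene, was level in the 3 groups, with 10.56, 10.56 and 10.58. Cacng8, the main hippocampal TARP, stood at 12.17, 12.41 and 12.09, and Cacng7 differed by at most 0.15. Cacng4, also found in glial precursors, was lowest in SAMP8, with 9.46 in SAMR1, 9.11 in SAMP8 and 9.45 with TG. The muscle gene Cacng1 was lower in SAMP8 (4.06) and TG-treated SAMP8 (3.89) than in SAMR1 (4.75), all at low signal, and Cacng6 stood at 5.61 in SAMR1, 5.17 in SAMP8 and 5.35 with TG.

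Cell type and region markers were read beside these values. The 5 markers listed for excitatory neurons, which include Snap25, a gene not limited to them, had mean levels of 15.70 in SAMR1, 15.85 in SAMP8 and 15.85 with TG. Camk2a stood at 19.93, the highest average of all probe sets, in every group, so its equal values may not show a steady level. The granule cell marker Prox1, which defines the dentate gyrus, stood at 11.26 in SAMR1, 11.85 in SAMP8 and 11.00 with TG, the order of groups seen for Cacna1a and Cacng5. Over the 5 hippocampal subfield markers, 5 were higher in SAMP8 than in SAMR1, 4 were lower with TG, and the mean level was 8.76 in SAMR1, 9.17 in SAMP8 and 8.81 with TG. Of these, Wfs1 had the order of groups of Prox1, while Dsp, Bok and Fibcd1 were higher in the TG-treated group than in SAMR1. All 5 astrocyte markers were higher in SAMP8 than in SAMR1, with mean levels of 10.18 in SAMR1, 10.73 in SAMP8 and 10.52 with TG. The parvalbumin gene Pvalb, of fast-spiking inhibitory neurons, stood at 6.66, 6.82 and 7.65, and thus was highest with TG. Over the 5 inhibitory markers, 2 were higher and 3 lower with TG, and their mean level was 9.66, 9.70 and 9.80. The 7 meningeal markers had mean levels of 7.90 in SAMR1, 8.18 in SAMP8 and 7.37 with TG. In SAMP8 vs SAMR1, 3 of them were higher, 3 lower and 1 equal, with a median of 0.00, and with TG 2 were higher and 5 lower. The extremes with TG were Ptgds (-2.69) and Igf2 (-1.89). The part of these markers in the differences of the channel genes was not tested.

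Pore-forming and auxiliary subunits were then set side by side. In SAMP8 vs SAMR1 the median difference was 0.01 over the 20 pore-forming and 0.195 over the 20 auxiliary probe sets, against 0.00 over all probe sets. Without the Cacng genes, most of which act on AMPA receptors, the auxiliary median was 0.30, and without the dimmest 25% of probe sets the pore-forming median was 0.06. Past 1.5-fold were 1 pore-forming and 4 auxiliary probe sets, beside 11.1% of all probe sets, and 10 and 14 were higher in SAMP8, beside 49.5% of all. In TG-treated SAMP8 vs SAMP8 the medians were -0.04 and -0.08, against 0.01 over all, with 1 and 3 past the limit, beside 8.21% of all. In TG-treated SAMP8 vs SAMR1 they were 0.03 and 0.04, against -0.01, and 11 members of each class were higher and 9 lower, where 48.1% of all probe sets were higher and 50.4% lower. These medians depended on the probe sets kept, since the auxiliary median was 0.275 without the Cacng genes and the pore-forming median 0.14 without the dimmest 25%. The pore-forming class thus held both directions at once, since with TG its sodium part had a median of 0.10 and its calcium part one of -0.29. That sodium median covers both probe sets of the muscle pore Scn4a and leaves out Scn2a. The neuronal sodium pores themselves were split with TG. Scn1a and Scn8a had differences of 0.10 each, Scn3a of -0.27 and Scn2a of -0.34. The auxiliary calcium subunits, at 0.14 in SAMP8 vs SAMR1 and -0.115 with TG, had the signs of the calcium pores in both. The same signs were found for all probe sets in the brightest 25% of signal (0.12 and -0.06). They were also found for all probe sets of genes that span over 100 kb (0.08 and -0.12).

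**Figure D3:**
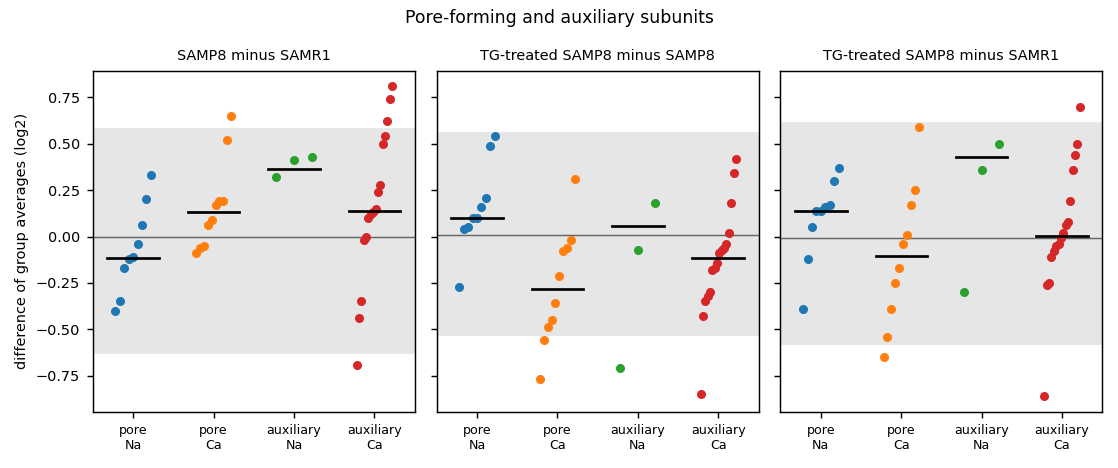
Differences of group averages (y axis, log2) for pore-forming and auxiliary sodium (Na) and calcium (Ca) probe sets in the 3 comparisons, 1 point for each of 38 probe sets, with black bars at the medians of the whole classes. The grey band holds the middle 90% of all probe sets and the grey line is their median. With TG the medians of the sodium pores (0.10) and the calcium pores (-0.29) lie on opposite sides of that line, with single points of both on either side.

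The members were also sorted by gene span, the distance from start to end of the gene in GRCm38, and by signal. The channel genes are long, with a median span of 97.7 kb, and 111 kb for the pore-forming genes, where all placed probe sets had a median of 17.2 kb. All 8 members over 200 kb (Cacna1a, Cacna1c, Cacna1d, Cacna1e, Cacna2d1, Cacna2d3, Cacnb2 and Cacnb4) were lower with TG, with a median of -0.44. Of the 993 probe sets of all genes over 200 kb, 67.9% were lower with TG, with a median of -0.14, and among those also in the brightest 25% of signal 76.3% were lower, with a median of -0.20. The 11 members between 100 and 200 kb, which include Scn1a, Scn8a and Scn9a, had a median of 0.04 with TG, where all probe sets of that span had -0.10. Across the 39 genes the Spearman correlation of span with the difference with TG was -0.26, and across the 21582 placed probe sets it was -0.25. Both run across genes measured on the same arrays and are given as descriptions. In the brightest 25% of signal, 17 of 22 members were lower with TG, and so were 57.9% of all 5551 probe sets. The part of gene span and signal in the calcium channel differences was not tested.

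**Figure D4:**
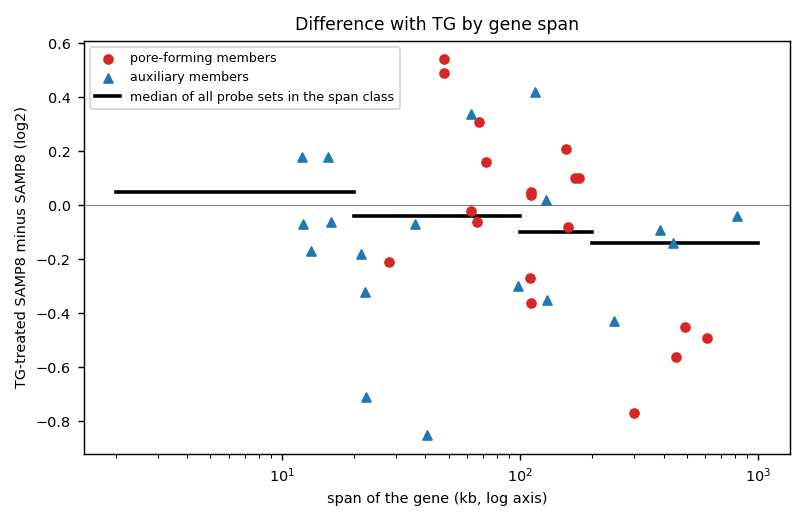
Difference between TG-treated SAMP8 and SAMP8 (y axis, log2) against gene span in kb (x axis, log scale), with circles for pore-forming and triangles for auxiliary members, 38 probe sets in all, and black bars for the median of all probe sets in each of 4 span classes. The bars run from 0.05 in the shortest class to -0.14 in the longest, and the 8 members over 200 kb lie below 0.

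Several channel genes are neighbours on their chromosomes, and neighbours could differ in sign. Cacng1, Cacng4 and Cacng5 lie side by side on chromosome 11 (Cacng4 from 107732357 to 107794706 and Cacng5 from 107874604 to 107915055, GRCm38). With TG, Cacng4 had a difference of 0.34 and Cacng5 one of -0.85. On chromosome 6, Cacna1c (118587240 to 119197384) and Cacna2d4 (119236524 to 119352407) are 39.1 kb apart, and their differences with TG were -0.49 and 0.42. Scn3a, Scn1a, Scn9a and Scn7a lie on chromosome 2 with differences with TG of -0.27, 0.10, 0.21 and 0.04. Scn2a, kept out of the counts, lies between Scn3a and Scn1a and had -0.34, the sign of Scn3a. Cacna1a lies on chromosome 8 (84338631 to 84640251) and Scn3b on chromosome 9 (40269216 to 40291618).

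Partners of these channels were described from lists of their own. Of 8 partners of sodium channels, Fgf14 alone passed 1.5-fold in SAMP8 vs SAMR1 (higher) and with TG (lower). This is 12.5% of the list in each comparison, near the 11.1% and 8.21% of all probe sets. Fgf14 encodes a protein that binds the sodium channel tail at the axon initial segment. Fgf14 stood at 10.17 in SAMR1, 10.89 in SAMP8 and 10.23 with TG, and was highest in SAMP8, as Cacna1a and Scn3b were. Ank3, the ankyrin that anchors sodium channels there, was level, with 13.13, 13.17 and 13.17. Nedd4l, a ubiquitin ligase that removes sodium channels from the membrane, stood at 14.58 in SAMR1, 14.00 in SAMP8 and 13.58 with TG. Its strain difference of -0.58 fell just short of the limit, and its average was 2-fold lower with TG than in SAMR1. In TG-treated SAMP8 vs SAMR1, 2 of the 8 partners passed 1.5-fold (25%, beside 10.5% of all), with Fgf11 higher and Nedd4l lower.

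Of 13 partners of calcium channels, 2 were more than 1.5-fold higher and 1 more than 1.5-fold lower in SAMP8 than in SAMR1. Together they made up 23.1% of the list, beside 11.1% of all probe sets past this limit. With TG, 1 partner was past 1.5-fold, in the higher direction (7.69%, beside 8.21% of all). Rims2, an active zone protein that tethers calcium channels, stood at 9.64 in SAMR1, 10.33 in SAMP8 and 9.96 with TG. Rem2, a small GTPase that dampens calcium channels, was lower in SAMP8 (6.30) than in SAMR1 (7.21), and stood at 6.68 with TG. Stac, dim in every group, stood at 3.88, 4.50 and 3.96. Cabp1, a calmodulin-like calcium sensor of L-type and P/Q-type channels, was level between the strains (10.28 and 10.27) and stood at 11.22 with TG, or 1.93-fold higher. The 4 genes of the sodium leak channel complex stayed within 1.5-fold in all comparisons, with Nalcn, its pore, at 9.57, 9.57 and 9.03.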

How the data were processed

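Hippocampal RNA of 3 mice per group was hybridized to Clariom S Mouse arrays. The authors normalized the arrays by SST-RMA in the Transcriptome Analysis Console and deposited 2 tables of group averages as log2 signal, with the annotation on mm10 (GRCm38) per the file headers. The tables also hold the authors' fold changes, p-values and FDR p-values, which were not used. Groups follow the sample titles. A description on each sample record concerns a cell line and was not used, and the series' design text speaks of duplicate samples where the records list 3 per group. The SAMP8 averages were identical in both tables, so TG-treated SAMP8 was also set against SAMR1.

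Differences of averages were computed for 22206 probe sets and counted past 1.5-fold. Averages have 2 decimals. No array values were used, so no test was run, and the number of arrays limits the precision. Spans and positions came from the RefSeq table of GRCm38.p6, on which 97.2% of probe sets and all 40 members were placed. Members and lists were chosen with earlier results of these data known. Genes given in full are those past 1.5-fold in any comparison and the neuronal pores. Other values illustrate the roles, the partners and the markers and were named after they were seen, and the span and signal classes were also added after the data were seen. Counts and medians were recomputed with other fold limits, after removal of the dimmest 25% of probe sets, centred, per gene, with the older symbol, without probe sets of several symbols and without Cacng genes. Some members enter the counts and medians but are not reported here by name and are not plotted. The code was tested on simulated data. Python 3.11.15 with pandas 2.3.3 and matplotlib 3.10.9 was used.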

Additional observations from a re-analysis of the deposited data

How the results depend on the processing

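Counts of members past the limit moved most with the limit. At 1.3-fold they were 12 in SAMP8 vs SAMR1, 11 in TG-treated SAMP8 vs SAMP8 and 12 in TG-treated SAMP8 vs SAMR1, and at 2-fold they were 0 in each. Leaving out the dimmest 25% of probe sets gave 4 in each comparison, and centring, 1 value per gene and the older symbol gave counts within 1.5 times of those reported. No spread between arrays was available, so any shift of a median is given. Without the dimmest 25%, the medians of pore-forming members were 0.06 (SAMP8 vs SAMR1), -0.06 (with TG) and 0.14 (TG-treated SAMP8 vs SAMR1), and those of auxiliary members 0.24, -0.07 and 0.06. With 1 value per gene the pore-forming medians were 0.06, -0.06 and 0.01. Centring on all probe sets gave -0.05 and -0.09 with TG, and 0.04 and 0.05 for TG-treated SAMP8 vs SAMR1, for pore-forming and auxiliary members. Without the Cacng genes the auxiliary median was 0.30 in SAMP8 vs SAMR1 and 0.275 for TG-treated SAMP8 vs SAMR1. No member carried several symbols, so leaving such probe sets out altered nothing. No paired analysis was possible because the tables hold group averages, and no array could be left out. Signal near background limits Scn10a, Scn11a, Cacna1f and Cacng1.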
